A study of Homo sapiens with 24 samples.

Results

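The mRNAs described here encode 36 lysosomal proteins, namely soluble enzymes and carriers, the precursor proteins PSAP and GRN, and proteins of the lysosomal membrane. They were chosen by gene symbol as proteins made at the endoplasmic reticulum, by a rule that uses no measured value, though earlier results of these data were known when the list was drawn up. All 36 were found among the 28307 genes of the count table. RNA was sequenced after affinity purification from the human colorectal cancer line HCT116, in which GFP had been knocked in by CRISPR/Cas9 on RUVBL1 or on RPAP3. RUVBL1 is an AAA+ ATPase and RPAP3 is a scaffold of the R2TP co-chaperone, which assembles protein complexes together with HSP90. Each lysate went over GFP-Trap beads, called GFP beads below, or over agarose beads without the anti-GFP binder, called uncoupled beads.

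The RPAP3 line had 4 groups: GFP and uncoupled beads after puromycin (100 µg/mL for 30 min), and GFP and uncoupled beads from untreated cells. The RUVBL1 line had 8 groups: both bead types after CB-6644 (0.5 µM for 16 h) plus puromycin, after puromycin, after CB-6644, and from untreated cells. Puromycin ends translation by releasing the growing chain from the ribosome, and CB-6644 inhibits the ATPase activity of RUVBL1 and RUVBL2. Each of the 12 groups had 2 libraries, and in every group one of the R2TP proteins carried GFP. The labels state neither whether a line was 1 clone nor whether replicates were separate cultures, so a p-value reflects how far these libraries scatter, and that scatter may be technical.

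Lysosomal enzymes are made on ribosomes docked at the endoplasmic reticulum, carry a signal peptide that is cut off on entry, and mostly receive mannose 6-phosphate in the Golgi, which directs them to the lysosome. Lysosomal membrane proteins reach the same organelle through sorting signals in their cytosolic tails. Many of the genes share a promoter element that is bound by the transcription factor TFEB and its relatives.

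Libraries held 30844089 to 50394245 counts in the RPAP3 line and 9019665 to 33051512 in the RUVBL1 line, and all 36 lysosomal mRNAs passed the filter on low counts in both. Across genes, the log2 counts of the 2 replicates of a group had a correlation of 0.912 to 0.978. In the RUVBL1 line 3 libraries stood apart on the leading principal components: replicate 2 on GFP beads with CB-6644, replicate 1 of GFP beads after both drugs, and replicate 2 of uncoupled beads from untreated cells. Of 10 colon epithelial markers, EPCAM, KRT8, KRT18, KRT19, CDH1, CDX2 and KRT20 had counts in all 24 libraries, while VIL1, CDH17 and LGALS4 were at 0 in 15, 16 and 16 libraries. Macrophage markers, which would mark a cell type rich in lysosomes, summed to at most 1.55 CPM in any library. Blood markers summed to at most 4.32 CPM and liver markers to at most 1.22 CPM. Stromal markers summed to as much as 45.68 CPM, in replicate 2 on GFP beads with CB-6644. Of these, COL1A1 had counts in all 24 libraries, at 5.21 to 41.58 CPM, beside 0.143 to 7.15 CPM for KRT20. CPM of single genes are counts divided by library size and by the scaling factor of the library. Sums over markers, and CPM of single markers, were divided by library size alone. The pull-down was checked with the mRNAs of RUVBL1, RUVBL2 and RPAP3 and with 2 known R2TP client mRNAs. In untreated cells RPAP3 mRNA was higher on GFP beads with RPAP3 as bait, by a log2 of 3.27 ± 0.14 (SE; edgeR, adjusted p = 4.23e-13). RUVBL1 (-0.14) and RUVBL2 (-0.03) did not reach an adjusted p under 0.05 there. With RUVBL1 as bait neither RUVBL1 (1.08) nor RPAP3 (0.97) nor RUVBL2 (0.19) reached it. In untreated cells PRPF8 was higher on GFP beads by a log2 of 5.13 ± 0.41 with RPAP3 and of 6.44 ± 0.45 with RUVBL1, and EP400 by 5.10 ± 0.26 and 6.07 ± 0.44 (SE; edgeR, adjusted p at most 0.00146). After puromycin PRPF8 was at 1.65 ± 0.37 and EP400 at 1.17 ± 0.36 with RUVBL1 (SE; edgeR, adjusted p at most 0.0312). With RPAP3 they were at 0.39 ± 0.35 and 0.40 ± 0.22 after puromycin and did not pass. With RUVBL1 after CB-6644 plus puromycin they were at 1.03 and 0.75 and did not pass either.

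The largest differences in lysosomal mRNAs were seen between puromycin and no drug in the RPAP3 line, on GFP beads and on uncoupled beads alike. On uncoupled beads of the RPAP3 line, 28 of the 36 mRNAs were higher after puromycin, 1 was lower (IDS), and 7 did not pass the test (edgeR quasi-likelihood test, adjusted p under 0.05). The median log2 difference was 1.41, with quartiles of 0.88 and 2.14. Puromycin moved many RNAs on these beads: 6532 of 15202 genes tested were called (43%), 3577 of them higher (23.5%) and 2955 lower (19.4%), and the median of all genes was -0.06. Both puromycin libraries lay above both untreated libraries for 31 of the 36, against 34.4% of all genes, and below for 1, against 37%. Together the 36 mRNAs took 0.266 to 0.276% of the counts after puromycin and 0.120 to 0.132% in untreated cells. Values are relative to all RNA in a library. Libraries of input RNA were not used here, so the amount of an mRNA in the lysate and its recovery on beads cannot be told apart.

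PSAP and GRN, which encode precursors that are cut into smaller proteins, were among the mRNAs that rose most. Their genes lie at chr10:71816298-71851251 (PSAP) and chr17:44345302-44353106 (GRN) in RefSeq's GRCh38.p14. PSAP, which is cut into the saposins that help lipid-degrading enzymes, had 566 and 465 CPM after puromycin, against 100.0 and 69.3 CPM in untreated cells on uncoupled beads. Its log2 difference was 2.61 ± 0.17 (SE, 2 libraries against 2; edgeR, adjusted p = 8.40e-10). GRN, the progranulin precursor that the lysosome cuts into granulins, had 172 and 146 CPM after puromycin, against 32.4 and 24.3 CPM in untreated cells. The puromycin and untreated libraries of both genes were far apart, and the GRN difference was 2.49 ± 0.17 (edgeR, adjusted p = 2.11e-09).

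Among the proteases 8 of 9 rose, with a median log2 difference of 2.05. CTSV, the cathepsin V cysteine protease, had 24.7 and 21.6 CPM after puromycin, against 3.91 and 3.38 CPM in untreated cells. At 2.67 ± 0.19 its log2 difference was the highest of the 36 (edgeR, adjusted p = 8.68e-10). TPP1, a tripeptidyl peptidase, had 84.1 and 72.5 CPM after puromycin, against 13.5 and 14.2 CPM untreated (2.50 ± 0.14, edgeR adjusted p = 6.46e-11). CTSA, a carboxypeptidase that also shields GLB1 and NEU1 in a complex, had 96.9 and 83.8 CPM after puromycin, against 19.2 and 16.1 CPM untreated (2.36 ± 0.14, edgeR adjusted p = 1.19e-10). None of these libraries overlapped between the treatments. The aspartic protease CTSD (2.18), and the cysteine proteases CTSL (2.05), CTSB (1.39), CTSC (1.13) and CTSH (1.06) rose less. CTSZ, the carboxypeptidase cathepsin Z, was the exception: it had 69.7 and 62.7 CPM after puromycin and 63.5 and 59.4 CPM in untreated cells, a difference of 0.11 ± 0.13 with overlapping libraries.

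Of the 10 glycosidases, enzymes that take sugars off glycans and glycolipids, 9 rose, with a median of 1.43. GAA, which degrades glycogen, had 133 and 112 CPM after puromycin, against 22.6 and 20.3 CPM in untreated cells. Its difference was 2.51 ± 0.14 (edgeR, adjusted p = 6.46e-11), and the treatments did not overlap. GUSB (1.80), GLB1 (1.69), FUCA1 (1.66), HEXA (1.61), MANBA (1.24), the sialidase NEU1 (1.11), GLA (0.97) and NAGLU (0.77) also passed the test. MAN2B1, the alpha-mannosidase, did not: it had 43.9 and 41.6 CPM after puromycin and 45.9 and 36.3 CPM untreated.

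Sulfatases divided. SGSH, which acts on heparan sulfate, rose by 1.56 ± 0.23 and ARSB by 0.91 ± 0.20, while ARSA was at 0.65 ± 0.36 and did not pass (edgeR, adjusted p = 0.153). IDS, the iduronate sulfatase, had 99.9 and 108 CPM after puromycin, against 156 and 165 CPM in untreated cells. Both puromycin libraries lay below both untreated ones, and IDS fell by 0.63 on the log2 scale (SE 0.13; edgeR, adjusted p = 0.000538). Among lipid enzymes and carriers LIPA, the acid lipase, rose by 2.02 ± 0.16 and PPT1, a thioesterase, by 1.31 ± 0.14. The sphingomyelinase SMPD1 (0.98 ± 0.93), the cholesterol carrier NPC2 (0.38 ± 0.16) and the ceramidase ASAH1 (0.02 ± 0.12) did not pass.

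Of the 6 membrane proteins 5 rose. LAMP1, an abundant glycoprotein of the lysosomal membrane, had 161 and 135 CPM after puromycin, against 35.1 and 32.7 CPM in untreated cells, which is 2.13 ± 0.13 on the log2 scale (edgeR, adjusted p = 2.48e-10). ATP6AP1, an accessory subunit of the proton pump (2.30 ± 0.23), LAMP2 (2.27 ± 0.17), the cholesterol transporter NPC1 (1.43 ± 0.14) and SCARB2, the receptor that carries beta-glucocerebrosidase (0.54 ± 0.12), passed the test too. The tetraspanin CD63 had 224 and 211 CPM after puromycin and 232 and 219 CPM in untreated cells, a difference of -0.05 ± 0.13.

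Across the 36 mRNAs the size of the difference had no clear relation to the length of the gene (Pearson r = -0.00, Spearman rho = -0.06) and a weak negative one to the log2 CPM in untreated cells (r = -0.33, rho = -0.17). Both are descriptions, and the 36 points share the same 4 libraries. The untreated CPM are also the baseline of the difference, so scatter in them alone can give a negative relation. Other groups of transcripts moved in the same libraries. The 10 colon markers include the cell surface proteins EPCAM and CDH1. Over the 24 libraries the keratins KRT8, KRT18 and KRT19 had medians of 1836, 986 and 931.5 CPM, beside 131.2 CPM for EPCAM. The 10 markers summed to 4267 and 4607 CPM on uncoupled beads after puromycin and to 1554 and 1877 CPM in untreated cells. Their part in the result was not tested. Macrophage markers summed to 0.445 and 0.746 CPM after puromycin and to 0.315 and 1.11 CPM in untreated cells. Reads of CTSL, GUSB, IDS, LAMP1 and FUCA1 may be shared with annotated pseudogenes, and CTSA, GLA, GLB1, NPC1, NPC2, SCARB2, CD63, PPT1, SGSH and LIPA overlap an annotated protein-coding gene. PSAP, CTSD, ASAH1 and MANBA overlap an annotated long non-coding RNA or pseudogene. How the authors counted such reads is not given in the sources used here.

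**Figure D1:**
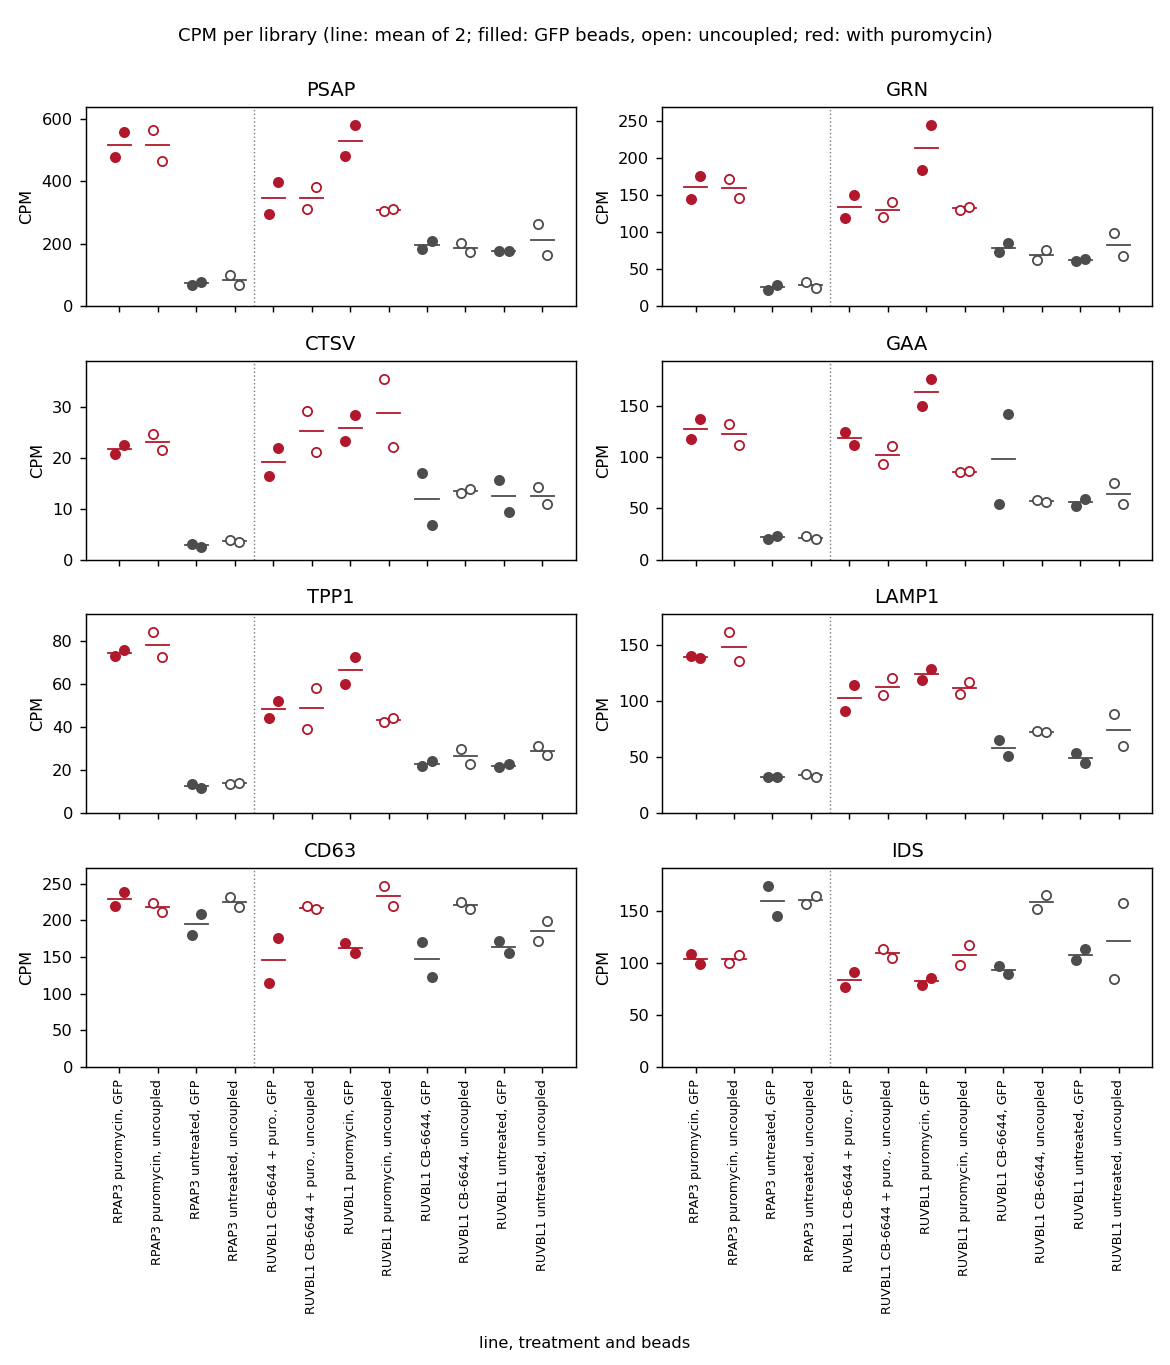
CPM of 8 lysosomal mRNAs in each of the 24 libraries, with the RPAP3 line left of the dotted line, the RUVBL1 line right of it, points for single libraries and lines for the mean of 2. PSAP, GRN, CTSV, GAA, TPP1 and LAMP1 were higher with puromycin on both bead types of the RPAP3 line, CD63 overlapped on uncoupled beads, and IDS was lower.

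GFP beads of the RPAP3 line gave nearly the same picture. There 29 of the 36 were higher after puromycin and 1 lower, with a median of 1.50, where 39.6% of all genes were called, 22.1% higher and 17.5% lower. PSAP had 478 and 558 CPM after puromycin, against 69.3 and 77.9 CPM in untreated cells, a log2 difference of 2.81 ± 0.17 (edgeR, adjusted p = 3.20e-10). CTSV was at 2.93 ± 0.19, GRN at 2.67 ± 0.17, TPP1 at 2.55 ± 0.14 and GAA at 2.54 ± 0.14, and IDS fell by 0.62. Unlike on uncoupled beads, NPC2 (0.41 ± 0.16, edgeR adjusted p = 0.0417) and CTSZ (0.35 ± 0.13, edgeR adjusted p = 0.0445) passed the test and ARSB (0.45 ± 0.20) did not. Both calls were close to the threshold: NPC2 was called in 5 of 10 alternatives, with values of 0.17 to 0.78, and CTSZ in 3 of 10, with values of 0.19 to 0.53. The extremes for NPC2 were 0.78 and 0.17 with the untreated GFP libraries A and B left out in turn. For CTSZ they were 0.53 with library B left out and 0.19 with upper-quartile scaling. The difference between bead types was tested as a change in enrichment, and no lysosomal mRNA passed it.

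Enrichment, the log2 ratio of GFP to uncoupled beads of one treatment, was near 0 with RPAP3. After puromycin it had a median of -0.01 over the 36 and ran from -0.30 (ARSB) to 0.30 (NEU1). In untreated cells the median was -0.11 and the range -0.58 (SMPD1) to 0.28 (SGSH). ARSB had 12.8 and 8.99 CPM on GFP beads and 14.3 and 12.7 CPM on uncoupled beads after puromycin, and NEU1 had 16.8 and 15.6 CPM on GFP beads and 14.0 and 12.4 CPM on uncoupled beads. In untreated cells SMPD1 had 0.188 and 2.01 CPM on GFP beads and 2.53 and 0.774 CPM on uncoupled beads, levels at which the replicates disagreed by more than the beads did. SGSH had 3.66 and 3.48 CPM on GFP beads and 2.91 and 2.98 CPM on uncoupled beads from untreated cells. By edgeR 0 of the 36 were called after puromycin (0.46% of all genes), 0 in untreated cells (1.54%), and 0 for the change with puromycin (0.25%). At an unadjusted p under 0.05 the count was also 0 in each, and DESeq2 called 0 in each. With the untreated GFP library B left out 2 were called in untreated cells, and SMPD1, then left with 8 counts on GFP beads, stood at -3.09.

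The promoters of 27 of the 36 genes were in the RefSeq table for GRCh38.p14, each as 250 bases before and 50 after the gene's start. The letters CACGTG, which read the same on both strands and form the core of the element bound by TFEB, were in 6 of these 27 (22.2%: CD63, CTSA, CTSD, GAA, LAMP1 and NEU1), against 7.43% of 27305 promoters. The longer TCACGTGA, which contains it and also reads the same on both strands, was in CTSA, GAA and LAMP1 (11.1%), against 1.04%. These 3 are shown because they hold the longer motif, whatever their values. GAA and LAMP1 hold 2 matches each, of which the first is shown. Each line gives 30 bases around the match on the plus strand, with TCACGTGA in capitals. A match describes these letters only. The windows lie at chr20:45891298-45891327 (CTSA), chr17:80101493-80101522 (GAA) and chr13:113297199-113297228 (LAMP1), all before the start of the gene.
CTSA: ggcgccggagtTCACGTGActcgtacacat
GAA: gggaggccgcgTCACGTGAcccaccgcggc
LAMP1: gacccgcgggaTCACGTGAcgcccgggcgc
CTSD, NEU1 and CD63 hold only the shorter motif. On uncoupled beads of the RPAP3 line CTSD was at 2.18 ± 0.17, NEU1 at 1.11 ± 0.18 and CD63 at -0.05 ± 0.13. CTSA, GAA and LAMP1 were at 2.36, 2.51 and 2.13. Members without a listed match ran from -0.63 (IDS) to 2.67 (CTSV), and not every promoter was searched. Whether the motif was related to the rise was not tested.

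In the RUVBL1 line lysosomal mRNAs also rose after puromycin, on GFP beads. There 14 of the 36 were called higher and 0 lower, against 5.04% of all genes called and 4.09% called higher. The median of the 36 was 0.77, and that of all genes -0.02. PSAP had 481 and 580 CPM after puromycin, against 176 and 178 CPM in untreated cells (1.59 ± 0.26, edgeR adjusted p = 0.000992). GRN had 184 and 244 CPM after puromycin, against 60.9 and 64.1 CPM untreated, and its 1.77 ± 0.24 was the highest value of the 36 (edgeR, adjusted p = 0.000127). TPP1 had 60.0 and 72.8 CPM after puromycin, against 21.5 and 22.7 CPM untreated (1.59 ± 0.23, edgeR adjusted p = 0.000354). For all 3 genes both puromycin libraries lay above both untreated libraries. GAA (1.55), GLB1 (1.41), LAMP1 (1.33), NPC1 (1.30), CTSD (1.25), CTSA (1.20), ATP6AP1 (1.12), LAMP2 (1.04), MANBA (0.99), FUCA1 (0.93) and CTSB (0.82) were called as well. IDS was at -0.40 ± 0.24 and did not pass. Without replicate 2 of GFP beads after puromycin 4 mRNAs were called, and without replicates 1 or 2 of untreated GFP beads 6 or 8. PSAP, TPP1, LAMP1 and GRN were called under every alternative run. The colon marker sum was 5189 and 5408 CPM after puromycin and 3590 and 3644 CPM in untreated cells on these beads.

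On uncoupled beads of the RUVBL1 line 0 of the 36 were called by edgeR after puromycin, where 0% of all genes were called. At an unadjusted p under 0.05 the count was 15 of the 36, against 1464 of 15976 genes, and DESeq2 called 1 of the 36. The median of the 36 was 0.31 and 30 values were positive, against -0.05 for all genes. Both puromycin libraries lay above both untreated libraries for 20 of the 36 (19.7% of all genes) and below for 2 (20%). CTSA had 63.9 and 69.9 CPM after puromycin, against 36.3 and 20.5 CPM untreated (1.22 ± 0.24, edgeR adjusted p = 0.15). PSAP had 304 and 313 CPM after puromycin, against 262 and 163 CPM untreated. The spread between the untreated libraries, one of which stood apart, was as large as the difference between the treatments for PSAP. Without the library that stood apart 0 were called, and without the other untreated library 1.

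Puromycin on top of CB-6644 gave positive values for most of the 36. On GFP beads 30 were positive with a median of 0.50, and on uncoupled beads 31 with a median of 0.56. By edgeR 0 were called on either, against 0.0939% and 0% of all genes, and DESeq2 called 1 and 5. At an unadjusted p under 0.05 the counts were 14 and 17, against 1237 and 1422 of 15976 genes. With the CB-6644 GFP library 1 left out 5 were called on GFP beads. PSAP had 296 and 398 CPM on GFP beads after both drugs, against 184 and 210 CPM after CB-6644 alone (0.82 ± 0.25, edgeR adjusted p = 0.379). ATP6AP1 had 35.6 and 44.6 CPM on uncoupled beads after both drugs, against 17.3 and 19.5 CPM after CB-6644 alone (1.12 ± 0.23, edgeR adjusted p = 0.161). CB-6644 itself, on uncoupled beads, gave a median of -0.04, and 0 of the 36 were called by edgeR (0% of all genes), 2 at an unadjusted p under 0.05 (860 of 15976 genes) and 0 by DESeq2.

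**Figure D2:**
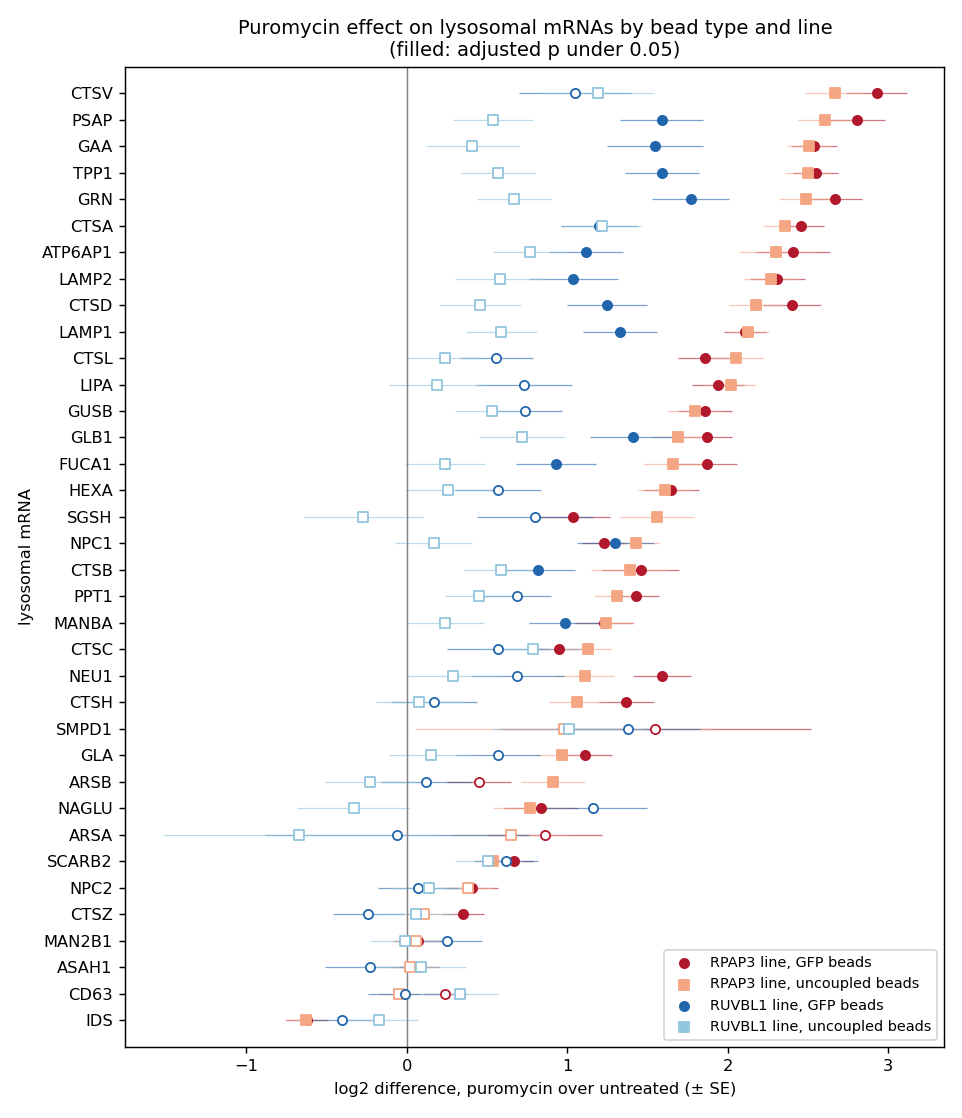
Log2 difference of puromycin over untreated (± SE) for each of the 36 mRNAs, on GFP and uncoupled beads of both lines, with filled symbols for an adjusted p under 0.05. Values of the RPAP3 line reached 2.93 and those of the RUVBL1 line 1.77, with IDS below 0 in all 4 comparisons.

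The size of the puromycin difference on uncoupled beads was compared between the lines in a fit of all 24 libraries. It was larger in the RPAP3 line for 15 of the 36 and smaller for 0, against 3.16% of all genes called and 2.67% called larger. The median difference between the lines was 1.02, and -0.01 over all genes. GAA stood at 1.98 ± 0.38 (edgeR, adjusted p = 0.00457), PSAP at 1.95 ± 0.33 (edgeR, adjusted p = 0.00177) and TPP1 at 1.81 ± 0.28 (edgeR, adjusted p = 0.00094). The untreated levels of these genes were lower in the RPAP3 line: TPP1 had 13.5 and 14.2 CPM there on uncoupled beads and 31.3 and 26.9 CPM in the RUVBL1 line, each scaled within its own line. After puromycin it had 84.1 and 72.5 CPM in the RPAP3 line and 42.2 and 44.3 CPM in the RUVBL1 line. Leaving out 1 library left 5 to 18 calls, with 5 without replicate 1 of either the untreated or the puromycin uncoupled beads of the RUVBL1 line, and 6 and 7 without replicate B untreated and replicate A after puromycin of the RPAP3 line. Without the untreated uncoupled library of the RUVBL1 line that stood apart there were 18. PSAP, TPP1, CTSL and GRN were called under every alternative run. The lines differ in the tagged protein and in replicate labels, and the line and any batch cannot be told apart.

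The order of the 36 mRNAs was similar in both lines. On GFP beads the puromycin differences of the RPAP3 and RUVBL1 lines had a Pearson r of 0.83 and a Spearman rho of 0.79 across the 36, and on uncoupled beads 0.57 and 0.63. These are descriptions across genes, which are not independent replicates and share the libraries of each line.

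With RUVBL1 as bait, enrichment of lysosomal mRNAs over uncoupled beads was called by edgeR only after puromycin, for 8 of the 36, all higher. Of all genes 13.8% were called there and 9.95% were called higher. Both GFP libraries lay above both uncoupled libraries for 15 of the 36 (31.8% of all genes) and below for 7 (30.7%). The median was 0.16 over the 36 and 0.00 over all genes. No other RUVBL1 treatment gave a call among the 36, and the differences between treatments are given further on. After puromycin the client mRNAs PRPF8 and EP400 were themselves at only 1.65 and 1.17 with RUVBL1.

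SMPD1 had 6.20 and 10.8 CPM on GFP beads and 2.85 and 3.77 CPM on uncoupled beads after puromycin, a log2 enrichment of 1.35 ± 0.45 (edgeR, adjusted p = 0.0481). SGSH had 12.0 and 14.3 CPM on GFP beads and 5.35 and 5.60 CPM on uncoupled beads (1.26 ± 0.37, edgeR adjusted p = 0.0252). NAGLU, which like SGSH degrades heparan sulfate, had 12.8 and 21.5 CPM on GFP beads and 6.45 and 8.86 CPM on uncoupled beads (1.16 ± 0.34, edgeR adjusted p = 0.0273). These 3 were the most enriched of the 36 and among those with the fewest counts. GAA had 150.1 and 176 CPM on GFP beads and 85.7 and 86.1 CPM on uncoupled beads (0.93 ± 0.29, edgeR adjusted p = 0.0395). NPC1 had 46.1 and 54.0 CPM on GFP beads and 25.4 and 30.4 CPM on uncoupled beads (0.84 ± 0.24, edgeR adjusted p = 0.0202). PSAP had 481 and 580 CPM on GFP beads and 304 and 313 CPM on uncoupled beads (0.78 ± 0.25, edgeR adjusted p = 0.041). In each of these the 2 GFP libraries lay above the 2 uncoupled ones. MANBA had 31.4 and 34.2 CPM on GFP beads and 18.9 and 21.2 CPM on uncoupled beads (0.71 ± 0.23, edgeR adjusted p = 0.0443). GRN had 184 and 244 CPM on GFP beads and 129.7 and 134 CPM on uncoupled beads (0.70 ± 0.23, edgeR adjusted p = 0.0448). At the other end NPC2 had 24.8 and 29.7 CPM on GFP beads and 46.6 and 43.5 CPM on uncoupled beads. Its value was -0.73 ± 0.25 (edgeR, adjusted p = 0.0587). NPC2 was called lower in 6 of 10 alternatives, while each enriched mRNA above was called higher in 3 to 7 of 10.

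All 8 adjusted p-values lay between 0.0202 and 0.0481, and none of the 8 was called under every alternative. Without replicate 2 of the GFP beads, or without either replicate of the uncoupled beads, 0 were called, and without replicate 1 of the GFP beads 3. These counts take calls in either direction. The log2 value stayed positive for all 8 in each alternative run.

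In untreated cells 0 of the 36 were called with RUVBL1 (edgeR, 0.933% of all genes), 4 had an unadjusted p under 0.05 (1767 of 15976 genes), and DESeq2 called 0. The median was -0.23, against -0.04 for all genes, and 29 values were negative. LAMP2 had 18.5 and 11.2 CPM on GFP beads and 28.6 and 18.5 CPM on uncoupled beads, the lowest value at -0.67 ± 0.28 (edgeR, adjusted p = 0.368). SMPD1 had the highest at 0.99 ± 0.48, with 2.13 and 4.39 CPM on GFP beads and 1.61 and 1.68 CPM on uncoupled beads. Both GFP libraries lay below both uncoupled libraries for 10 of the 36 (18.7% of all genes) and above for 2 (18.6%). Without the uncoupled library that stood apart 0 were called as well.

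After CB-6644 0 of the 36 were called (edgeR, 2.42% of all genes), 9 had an unadjusted p under 0.05 (3531 of 15976 genes), and DESeq2 called 2. ARSA, the arylsulfatase for sulfatide, had 1.33 and 16.5 CPM on GFP beads and 3.39 and 1.74 CPM on uncoupled beads, so its value of 1.77 ± 0.85 came from replicate 2 of the GFP beads, a library that stood apart, and was -0.94 without it. IDS had 97.0 and 89.0 CPM on GFP beads and 151 and 166 CPM on uncoupled beads, at -0.77 ± 0.24 (edgeR, adjusted p = 0.0805). Without replicate 1 of the GFP beads, so that the library standing apart was the only one left, ARSA was at 2.67.

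After both drugs 0 of the 36 were called (edgeR, 0.557% of all genes), 1 had an unadjusted p under 0.05 (1364 of 15976 genes), and DESeq2 called 0. The values ran from -0.58 for CD63, which had 114 and 176 CPM on GFP beads and 219 and 215 CPM on uncoupled beads, to 0.72 for ARSA, which had 9.61 and 3.14 CPM on GFP beads and 3.64 and 4.10 CPM on uncoupled beads. Without the GFP library that stood apart ARSA was at -0.31 and 0 were called.

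**Figure D3:**
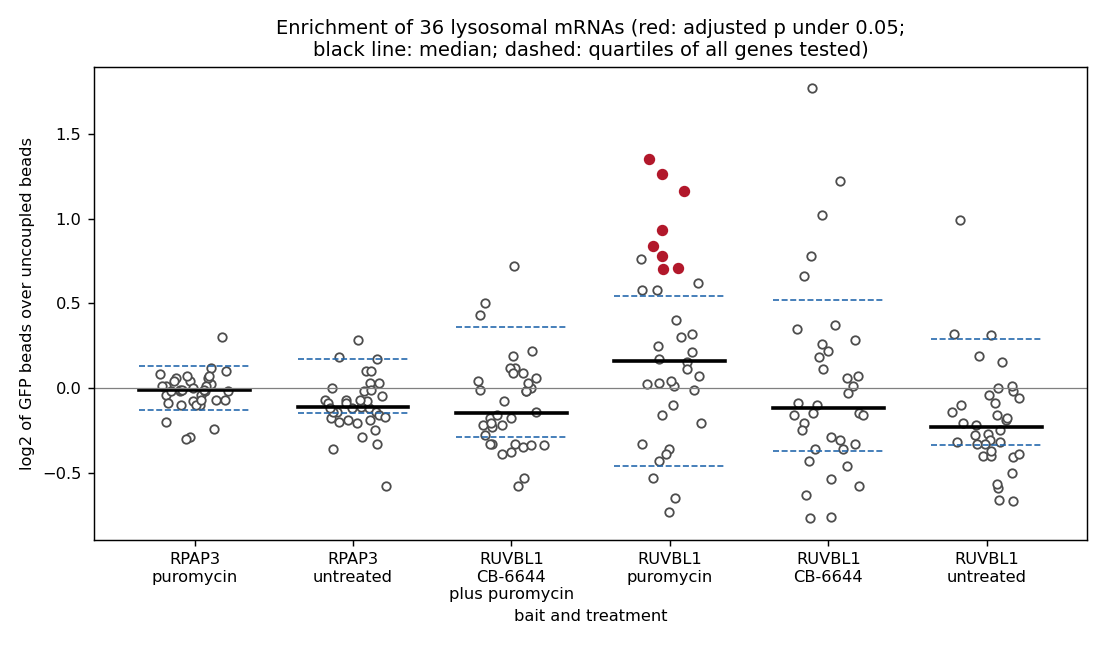
Log2 ratio of GFP to uncoupled beads for the 36 mRNAs in the 6 combinations of bait and treatment, with a black line at the median, dashed lines at the quartiles of all genes tested and red points for an adjusted p under 0.05. Only RUVBL1 after puromycin has red points, and RPAP3 values lie between -0.58 and 0.30.

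Differences between enrichments were then tested directly, and no lysosomal mRNA passed. For the change in RUVBL1 enrichment with puromycin 0 of the 36 were called by edgeR (0.113% of all genes), 9 at an unadjusted p under 0.05 (1588 of 15976 genes) and 0 by DESeq2. The median was 0.36, and NAGLU (1.49 ± 0.49), GAA (1.14 ± 0.42), NPC1 (1.12 ± 0.34) and GRN (1.11 ± 0.33) had the highest values, with edgeR adjusted p of 0.278, 0.359, 0.214 and 0.207. Without the untreated uncoupled library that stood apart 3 were called. The change with CB-6644 had a median of 0.17 with 0 calls (edgeR, 0.188% of all genes), 3 at an unadjusted p under 0.05 (1878 of 15976 genes) and 0 by DESeq2. With the CB-6644 GFP library 1 left out 5 were called. Under puromycin, adding CB-6644 gave a median of -0.26, with 30 of the 36 negative. There 0 were called (edgeR, 0.106% of all genes), 3 had an unadjusted p under 0.05 (1359 of 15976 genes) and DESeq2 called 0. Under CB-6644, adding puromycin gave a median of 0.02, with 0 called by edgeR (0.0501% of all genes), 0 at an unadjusted p under 0.05 and 0 by DESeq2.

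RUVBL1 and RPAP3 enrichment were also set against each other. After puromycin RUVBL1 minus RPAP3 had a median of 0.25, with SGSH highest at 1.53 ± 0.46 (edgeR, adjusted p = 0.051) and NPC2 lowest at -0.76 ± 0.32. By edgeR 0 of the 36 were called (4.45% of all genes), 10 had an unadjusted p under 0.05 (3221 of 16695 genes), and DESeq2 called 0. In untreated cells the median was -0.11, with 0 called by edgeR (0.407% of all genes), 0 at an unadjusted p under 0.05 and 0 by DESeq2, and 1 without replicate B of the untreated RPAP3 GFP beads.

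Other gene groups of the lysosomal and secretory route were measured beside the 36 on uncoupled beads of the RPAP3 line after puromycin. Of 25 further lysosomal proteins that were tested, 15 rose and 0 fell, with a median of 0.93, among them the protease LGMN (2.22 ± 0.17) and the prenylcysteine oxidase PCYOX1 (1.74 ± 0.14). Of 14 proteins of lysosomal sorting 9 rose and 0 fell, with a median of 0.60, led by the retromer subunit VPS35 (1.77 ± 0.14) and the clathrin heavy chain CLTC (1.02 ± 0.14). Of 15 subunits of the V-ATPase, the pump that acidifies lysosomes, 9 rose and 5 fell, and ATP6AP2 (2.18 ± 0.18) and ATP6V1H (1.58 ± 0.15) were among those that rose. Cytosolic regulators of lysosomes, which include TFEB itself, went the other way, with 2 of 15 higher, 6 lower and a median of -0.35. The LAMTOR subunits, which anchor mTORC1 to the lysosome, were among those that fell, for example LAMTOR4 (-0.84 ± 0.13) and LAMTOR1 (-0.80 ± 0.13).

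The rise was shared by groups outside the lysosome. Of 34 cell surface and secreted proteins 25 rose and 2 fell, with a median of 0.97, and the adhesion protein EPCAM stood at 1.99 ± 0.14 and the amyloid precursor APP at 2.27 ± 0.15. Of 28 proteins of targeting and translocation at the endoplasmic reticulum 16 rose and 7 fell, with RPN2 (2.52 ± 0.14) and STT3A (2.15 ± 0.14), both of the oligosaccharyltransferase, highest. Of 20 cytosolic metabolic enzymes, which are not made at the endoplasmic reticulum, 18 rose and 0 fell, with a median of 1.32 beside 1.41 for the 36 lysosomal mRNAs. The glycolytic enzymes PGK1 (2.01 ± 0.14) and LDHA (1.81 ± 0.14) were among them. Counts of this kind are set against 43% of all genes called, and no difference between the lists was tested.

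On GFP beads of the RUVBL1 line after puromycin the same lists gave 4 of 25 further lysosomal proteins, 5 of 14 sorting proteins, 20 of 34 cell surface and secreted proteins and 4 of 20 metabolic enzymes higher, with 0 lower in each. Their medians were 0.41, 0.52, 0.81 and 0.56. Of the V-ATPase subunits 3 of 15 were higher and 1 lower (median 0.10), and of the endoplasmic reticulum proteins 5 of 28 were higher and 1 lower (median -0.04). Of the 15 cytosolic regulators 0 were called by edgeR, 5 had an unadjusted p under 0.05, and the median was -0.30. Of all genes 5.04% were called there and 4.09% were called higher. In RUVBL1 enrichment after puromycin, where 13.8% of all genes were called and 9.95% were called higher, 5 of 14 sorting proteins were higher and 0 lower, among them the mannose 6-phosphate receptor IGF2R (1.46 ± 0.27) and its adaptors GGA2 (1.49 ± 0.23), GGA1 (0.94 ± 0.23) and GGA3 (0.78 ± 0.21). Of the cell surface and secreted proteins 13 of 34 were higher and 0 lower, while 1 of 28 endoplasmic reticulum proteins was higher (SEC61A1, 1.22 ± 0.22) and 5 were lower, including the signal recognition particle subunits SRP9 (-1.24 ± 0.25) and SRP14 (-1.02 ± 0.27). Further lysosomal proteins had 1 of 25 higher and 0 lower, V-ATPase subunits 3 of 15 higher and 3 lower, and cytosolic regulators 0 of 15 higher and 2 lower. Of the cytosolic metabolic enzymes 5 of 20 were higher (25%), beside 8 of the 36 lysosomal mRNAs (22.2%).

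**Figure D4:**
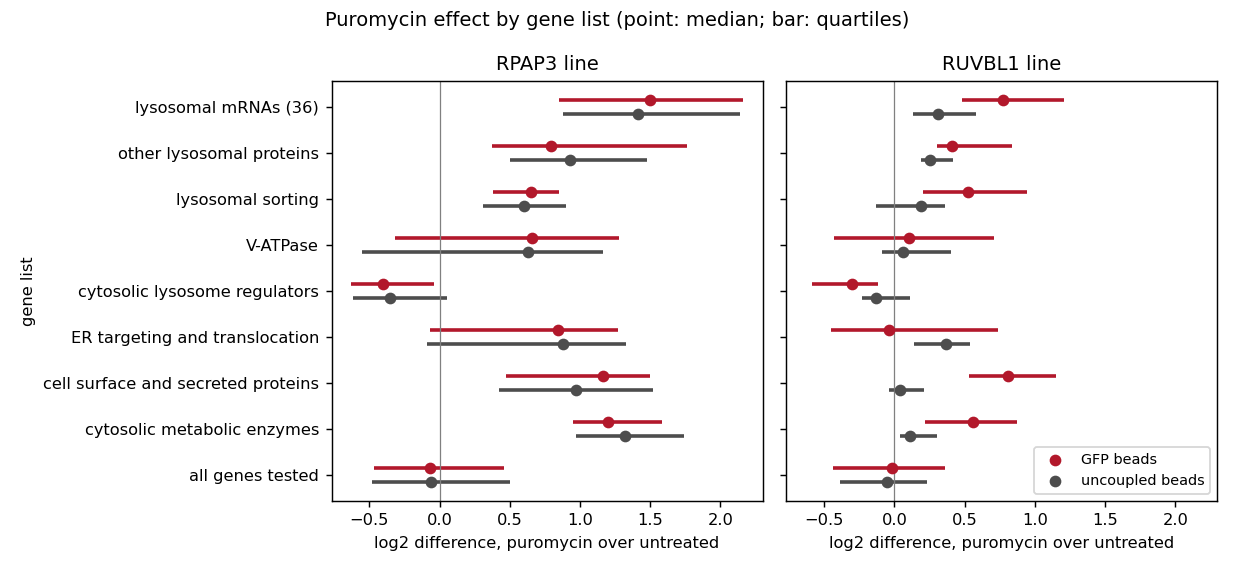
Median (point) and quartiles (bar) of the log2 difference of puromycin over untreated for the 36 lysosomal mRNAs, 7 other gene lists and all genes tested, on GFP and uncoupled beads of both lines. In the RPAP3 line the 36 had medians of 1.50 and 1.41 on GFP and uncoupled beads, beside -0.40 and -0.35 for cytosolic lysosome regulators.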

How the data were processed

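RNA recovered on GFP or uncoupled beads was measured in 24 libraries. For these the authors deposited raw counts, as whole numbers without normalization. The submitters' processing notes list featureCounts 2.0.3, TopHat2 2.1.1, FastQC 0.11.9 and bcl2fastq 2.20.0.422 and the build hg38, without saying what each was used for. The library kit kept strand, per the labels' protocols. Strand setting and annotation release are not given in the sources used here, so reads of pseudogenes, overlapping and antisense genes cannot be told apart from the members' own. No molecular identifiers separated PCR copies.

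The deposited counts were tested in R 4.3.3 with edgeR 4.0.16 (quasi-likelihood, TMM, filterByExpr, robust). Benjamini-Hochberg adjustment ran over all genes tested, and a call needs an adjusted p under 0.05. One fit held the 8 RPAP3 libraries (15202 genes, biological coefficient of variation 0.142), another the 16 RUVBL1 libraries (15976 genes, 0.263), and a joint fit of 24 libraries (16695 genes, 0.229) compared the lines. Every printed standard error comes from the test's F statistic, so its variance was pooled over the fit. CPM of single genes are scaled by depth and TMM factor within a line, and marker sums and single markers by depth alone. On simulated data edgeR recovered 38% of 2-fold and 98% of 4-fold changes in untreated RUVBL1 enrichment. It recovered 95% and 100% in untreated RPAP3 enrichment, and 21% and 86% for the untreated difference between baits. False calls numbered 5, 17 and 4. In the simulation, genes with the lowest CPM were not changed, so recovery at such levels was not measured. All replicate pairs differed by more than sampling noise (chi-square per degree of freedom 12.9 to 93.1), so none were merged.

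The 36 members, the 7 other lists and the tests were chosen with earlier results of these data known. Of 21 comparisons 5 were added after these data were seen: puromycin on GFP beads of each line, puromycin on each bead type under CB-6644, and the puromycin effect compared between lines. Every member may be named. Values per library are given for at most 8 called members per comparison and direction and for the extremes of each enrichment, and from other lists at most 4 called genes each are named. Alternatives were upper-quartile and total-count scaling, no filter on low counts, a replicate block, DESeq2 1.42.0, a fit of all libraries, and leaving out each library. Counts of called members in an alternative are printed without the share of all genes called in that run.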

Additional observations from a re-analysis of the deposited data

Results flagged for a closer look

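The puromycin difference on uncoupled beads differed between the lines for 15 lysosomal mRNAs, by a test of the difference itself (edgeR, all 24 libraries). Each value is the log2 difference in the RPAP3 line minus that in the RUVBL1 line. It was 1.95 for PSAP, 1.98 for GAA, 1.81 for TPP1, 1.59 for CTSD, 1.70 for CTSL, 1.42 for LAMP1, 1.57 for LAMP2, 1.23 for HEXA, 1.14 for GUSB, 1.14 for NPC1, 1.71 for SGSH, 1.70 for LIPA, 1.70 for GRN, 1.29 for FUCA1 and 1.40 for ATP6AP1. All 15 were larger in the RPAP3 line. The edgeR adjusted p ran from 0.00094 for TPP1 to 0.0399 for HEXA. Leaving out 1 library at a time gave 5 to 18 calls among the 36. Groups of 2 libraries are too small for a check of single libraries against their group.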

How the results depend on the processing

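Counts here are of calls among the 36 in either direction, by edgeR unless DESeq2 is named. They are given without the share of all genes called in the same run, so a changed count says nothing particular to the 36. For RUVBL1 enrichment after puromycin they include NPC2, which was called lower in 6 of 10 alternatives. The 29 calls after puromycin on uncoupled beads of the RPAP3 line stayed at 27 to 30 under every alternative run, and the 30 on its GFP beads at 27 to 31. Upper-quartile scaling moved the median of all genes there to -0.23, and the lysosomal medians to 1.23 and 1.36 on uncoupled and GFP beads. The 8 calls of RUVBL1 enrichment after puromycin were 5 with upper-quartile scaling, 6 with total-count scaling, 9 with no filter, 9 by DESeq2, 10 with all libraries fitted together and 0 to 3 without 1 library. The 0 calls after CB-6644 were 1 with total-count scaling, 5 with no filter, 2 by DESeq2, 4 with all libraries and 0 to 11 without 1 library. Total-count scaling also moved the median of all genes there to 0.26. The 14 calls after puromycin on GFP beads of the RUVBL1 line were 12 to 19 under the alternatives and 4 to 11 without 1 library, and the 15 calls for the difference between lines were 16 to 19 and 5 to 18. For puromycin on uncoupled beads of the RUVBL1 line, 0 became 2 with no filter, 1 by DESeq2, 1 with all libraries and 0 to 1 without 1 library. Under CB-6644 the count on uncoupled beads was 3 with no filter, 5 by DESeq2 and 3 with all libraries, and on GFP beads 1, 1 and 1, and 0 to 5 without 1 library. The bait difference after puromycin was 1 with no filter. With 1 library left out, some runs gave calls in untreated RPAP3 enrichment and in the untreated bait difference. The same held for the changes in RUVBL1 enrichment with puromycin and with CB-6644. Where leaving out 1 library raised a count, the cause was not tested, and the library left alone in its group was assumed to vary like the others. Some enrichments changed sign when 1 library was left out. ARSA ran from -0.94 to 2.67 after CB-6644 and from -0.31 to 1.30 after both drugs, and SMPD1 from -3.09 to 0.46 in untreated RPAP3 cells, with 0.26 without GFP replicate A and 0.46 without uncoupled replicate A. The replicate numbers were shared by the groups, and whether same-numbered libraries belong together was not settled. The main tests treated the libraries as unpaired. Deviations of same-numbered libraries correlated at -0.499 to 0.418 in the RUVBL1 line and 0.0128 to 0.332 in the RPAP3 line. With the replicate number as a block 9, 18 and 16 were called for RUVBL1 enrichment after puromycin, puromycin on its GFP beads and the difference between lines. Depth limits SMPD1 and ARSA most, and 2 libraries a group limit every comparison.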

Other observations

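ARSA and SMPD1 had the fewest counts of the 36 lysosomal mRNAs and the largest spread between replicates. SMPD1 had 8 and 75 counts on GFP beads and 93 and 41 counts on uncoupled beads of untreated RPAP3-line cells. ARSA had 26 and 178 counts on GFP beads and 71 and 39 counts on uncoupled beads after CB-6644 in the RUVBL1 line.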
